A study of Mus musculus with 5 samples.

Results

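The 10 genes described here belong to the Notch pathway: the receptors Notch1, Notch2 and Notch3, the ligands Jag1, Jag2 and Dll1, the DNA-binding factor Rbpj, and the target genes Hes1, Hey1 and Nrarp. They were chosen by symbol, all 10 were found among the 52029 genes of the shared table and in the table of the third co-culture library, and all 10 passed the low-count filter. They were measured by RNA sequencing in hepatobiliary organoids, which are epithelial cultures grown in 3 dimensions from stem/progenitor cells of mouse liver (primary, wild-type). The titles' P1 and P8 are read here as passages. Organoids alone (2 libraries, M11 and M12, passage 1, no treatment) were compared with organoids co-cultured with liver endothelial cells (3 libraries, passage 8), all at day 10. The stated purpose was to find pathways through which endothelial cells support these progenitors. All cultures shared a medium with EGF, the kinase inhibitor Y-27632, nicotinamide, heparin and endothelial growth supplement. Because the groups differ in passage as well as in co-culture, the effects of passage and endothelial cells cannot be told apart.

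Notch receptors sit in the cell membrane and are bound by ligands on a neighbouring cell. Binding lets ADAM proteases and then gamma-secretase cut the receptor, and the released intracellular domain enters the nucleus, joins RBPJ and a Mastermind coactivator on DNA and switches on genes such as Hes1. In the developing liver, Jag1 and Notch2 direct bipotent progenitors towards bile duct cells, and loss of either gene's function underlies Alagille syndrome, in which bile ducts are too few.

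Promoter windows from RefSeq (GRCm38.p6; 250 bases before to 50 after each annotated start) matched 8 of the 10 members, without Hes1 and Hey1, and gave 10 windows. The core letters of the RBPJ site, TGGGAA, were searched on both strands and occurred in the windows of 1 of the 8 members, Rbpj itself. In the first Rbpj window they were at -149 and -65 from that window's RefSeq start, the second match on the lower strand. The Rbpj windows lie within the GENCODE gene, downstream of its start at chr5:53466152. Among all 32851 windows of the same length, 25.6% held TGGGAA, and 6.38% held the longer GTGGGAA, which contains the former and was in none of the 10 windows. Below are the upstream parts, outside GENCODE exons, for 3 members. Dll1 is shown because it fell in co-culture, Rbpj because it holds the match (capitals mark TGGGAA), and Nrarp because it is a target gene. The 250 bases of Dll1 before its upstream start are at chr17:15376933-15377182 (minus strand), the 118 of Rbpj at chr5:53590096-53590213 (plus strand) and the 250 of Nrarp at chr2:25180508-25180757 (plus strand), each written 5′ to 3′ along the gene.
Dll1: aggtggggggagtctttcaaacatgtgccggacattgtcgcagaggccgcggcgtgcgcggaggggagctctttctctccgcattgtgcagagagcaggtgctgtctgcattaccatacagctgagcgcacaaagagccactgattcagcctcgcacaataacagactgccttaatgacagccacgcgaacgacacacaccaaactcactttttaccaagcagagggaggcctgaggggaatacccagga
Rbpj: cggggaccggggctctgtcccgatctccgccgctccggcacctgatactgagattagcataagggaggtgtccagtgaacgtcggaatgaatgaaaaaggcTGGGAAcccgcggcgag
Nrarp: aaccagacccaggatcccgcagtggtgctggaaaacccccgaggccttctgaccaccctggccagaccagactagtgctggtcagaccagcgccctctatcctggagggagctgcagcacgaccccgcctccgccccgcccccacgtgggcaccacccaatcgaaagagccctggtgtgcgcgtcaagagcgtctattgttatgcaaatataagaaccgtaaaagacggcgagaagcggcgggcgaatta
In the window of Jag2, which lies within a GENCODE exon and is not printed, 86.0% of bases were G or C, against a median of 52.7% over all windows. The upstream window of Dll1 held 56.3%.

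The libraries held 26466739 to 58853737 counts. M9 and M10 of the co-cultures share a table with M11 and M12. The third co-culture library comes from a separate table with RefSeq annotation, whose column carries another library number than its record, and it has no replicate in that table. Levels are given as CPM (a count relative to library size, scaled by TMM over the 5 libraries), and fold changes and tests are from the 4 libraries of the shared table. Whether the libraries of a group are separate cultures is not in the labels, so the p-values reflect library spread only, which may be technical. All 10 hepatobiliary epithelial markers looked up, among them Epcam, Krt19 and Sox9, were expressed and tested.

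In M9 and M10 the Notch ligands changed in opposite directions: Jag2 rose 2.74-fold and Dll1 fell 3.62-fold in mean CPM, while the 3 receptors, Jag1, Rbpj and the 3 target genes did not pass the test. Thus 2 of 10 members were called by edgeR's quasi-likelihood test (adjusted p under 0.05 over 15899 genes), 1 in each direction. Of all genes tested 2.24% were called, 0.994% higher and 1.25% lower. The members were chosen with earlier results of these data known, so these shares are a description and not a test. The median log2 fold change was -0.21 over the members and 0.00058 over all genes. The values of M9 and M10 did not overlap those of M11 and M12 for 8 of the 10 members, 2 higher and 6 lower, where 49.4% of all genes did not overlap (24.3% higher, 25.1% lower). That count uses CPM scaled over the 4 libraries; with 5-library scaling M10 edges above M11 for Hes1. The third co-culture library lay above both organoids alone for 3 members and below both for 7, against 43.6% and 45.3% of 14686 genes. It shares M11 and M12 with the tested comparison.

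**Figure D1:**
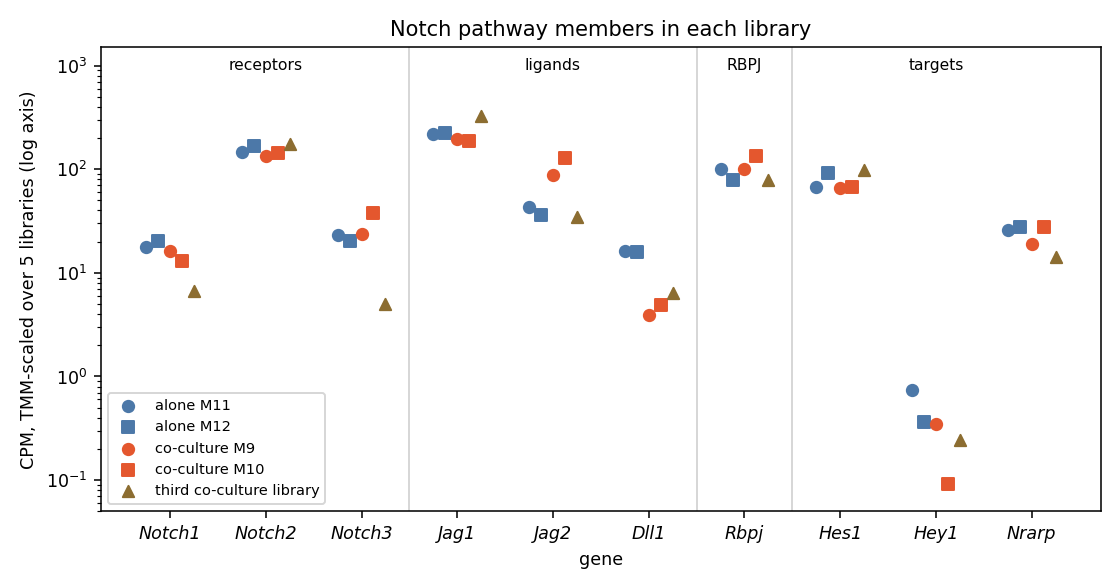
Level of the 10 members in each of the 5 libraries, in CPM scaled by TMM over the 5 libraries, on a log axis. Each point is 1 library. Jag2 is at 88.0 and 129 CPM in M9 and M10, above the other 3 libraries, and Dll1 is below the organoids alone in each of the 3 co-culture libraries.

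Dll1 encodes Delta-like 1, a membrane-bound Notch ligand. Its gene (ENSMUSG00000014773) is protein coding and lies on the minus strand of chromosome 17 from 15367354 to 15376872 in GRCm38. Alone, Dll1 was at 16.2 CPM (M11) and 15.9 CPM (M12); with endothelial cells it was at 3.93 CPM (M9), 4.95 CPM (M10) and 6.34 CPM (the third library). All 3 co-culture libraries were below both organoids alone, with no overlap. Mean Dll1 was 16.1 ± 0.209 CPM alone and 4.44 ± 0.720 CPM in M9 and M10 (SD, n = 2 each). On the log2 scale the difference was -1.87 ± 0.27 (SE; adjusted p = 0.0361, edgeR). The third library differed from the mean of the organoids alone by -1.33 (log2 CPM, no test). The call was lost without M11 (adjusted p = 0.251), without M12 (0.295) and with all 5 libraries (0.263, log2 fold change -1.66), where the adjusted p over the 11 alternatives ran from 2.43e-07 to 0.295 and the log2 fold change stayed between -2.03 and -1.66. A gene on the opposite strand, A930024N18Rik, overlaps Dll1 in GENCODE and was not analysed here.

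Jag2 encodes Jagged2, a ligand with a larger extracellular part than the Delta-like family. Its gene (ENSMUSG00000002799) lies on chromosome 12, minus strand, between 112907819 and 112929776. Jag2 levels were 43.1 CPM (M11) and 36.0 CPM (M12) alone, against 88.0 CPM (M9), 129 CPM (M10) and 34.7 CPM (the third library). M9 and M10 were above both organoids alone, whereas the third library was below both. Mean Jag2 rose from 39.6 ± 5.05 CPM alone to 108 ± 28.9 CPM (SD, n = 2 each). This was 1.44 ± 0.23 on the log2 scale (SE; adjusted p = 0.0435, edgeR). In the third library the difference from the organoids alone was -0.18 (log2 CPM, no test). The call was lost with limma-voom (adjusted p = 0.0568), without M11 (0.173), without M12 (0.320) and with all 5 libraries (0.577, log2 fold change 1.08), within a range of 2.88e-07 to 0.577 over the 11 alternatives.

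Jag1, the ligand best known from bile duct development, was the most abundant ligand by counts. Its gene (ENSMUSG00000027276) lies on chromosome 2, minus strand, between 137081456 and 137116644. Organoids alone had 218 CPM (M11) and 224 CPM (M12) of Jag1, against 195 CPM (M9), 187 CPM (M10) and 328 CPM (the third library). M9 and M10 were below the organoids alone and the third library was above all others. The log2 fold change was -0.22 ± 0.14 (SE; adjusted p = 0.506, edgeR), and the third library differed from the organoids alone by 0.57 (log2 CPM, no test). With all 5 libraries the sign turned to 0.10 (adjusted p = 0.918).

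Ratios of counts within a library do not depend on the scaling between libraries. Per Jag1 count there were 0.0744 (M11) and 0.0712 (M12) Dll1 counts alone, against 0.0201 (M9), 0.0265 (M10) and 0.0193 (the third library). The ratio was thus lower in each of the 3 co-culture libraries, with the reservation that the third was counted on another annotation. The ratio of Jag2 to Jag1 counts was 0.198 and 0.161 in M11 and M12, 0.451 and 0.689 in M9 and M10, and 0.106 in the third library, so that M9 and M10 were highest and the third library lowest.

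**Figure D2:**
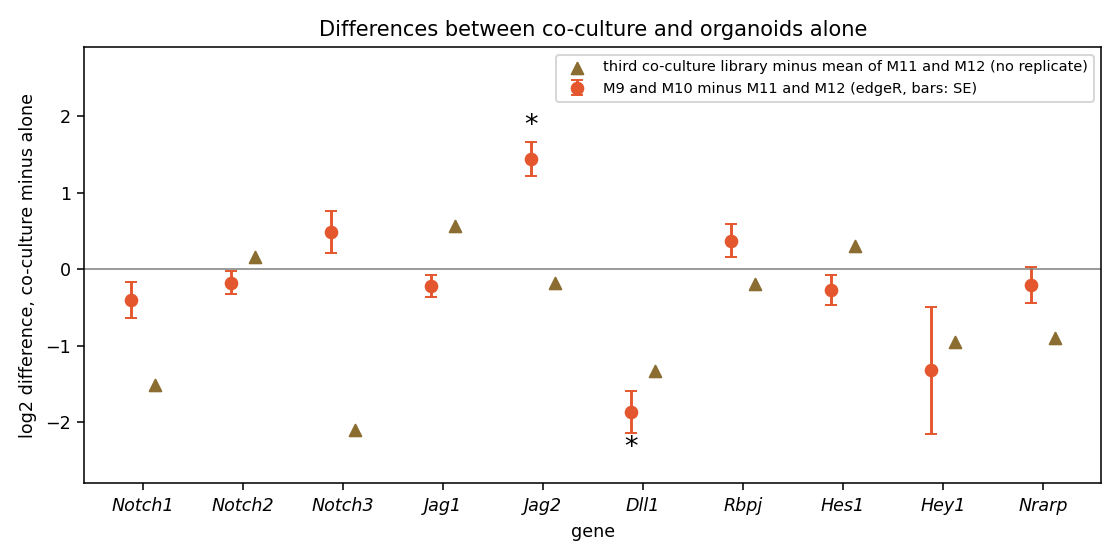
Log2 difference of co-culture from organoids alone for the 10 members. Circles are the edgeR fold changes of M9 and M10 against M11 and M12 with their standard errors, asterisks mark an adjusted p under 0.05, and triangles are the third co-culture library, without replicate. The circle and the triangle lie well below 0 for Dll1, and for Jag2 the circle is at 1.44 and the triangle at -0.18.

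Notch2, the main receptor of the biliary lineage, was the receptor with the highest level. Its gene (ENSMUSG00000027878) lies on chromosome 3, plus strand, between 98013527 and 98150361. Alone, Notch2 was at 148 CPM (M11) and 167 CPM (M12), and in co-culture at 136 CPM (M9), 145 CPM (M10) and 176 CPM (the third library). M9 and M10 lay slightly below the organoids alone and the third library above them, and the log2 fold change was -0.18 ± 0.15 (SE; adjusted p = 0.611, edgeR).

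Notch1, a receptor used widely in epithelia and endothelium, is encoded on the minus strand of chromosome 2 (26457903 to 26516663, ENSMUSG00000026923). Notch1 levels were 17.9 CPM (M11) and 20.5 CPM (M12) alone, against 16.1 CPM (M9), 13.0 CPM (M10) and 6.67 CPM (the third library). Each co-culture library was below both organoids alone, but the log2 fold change of Notch1, -0.40 ± 0.24 (SE), did not pass (adjusted p = 0.467, edgeR). The third library differed by -1.51 (log2 CPM, no test). The gene 0610009E02Rik overlaps Notch1 on the other strand, with 79.9 estimated counts in the 4 libraries together against 1959.1 of Notch1.

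Notch3, a receptor best known from vascular mural cells, lies on the minus strand of chromosome 17 (32120820 to 32166852, ENSMUSG00000038146). For Notch3 the organoids alone gave 23.4 CPM (M11) and 20.2 CPM (M12), and the co-cultures 23.5 CPM (M9), 37.9 CPM (M10) and 5.03 CPM (the third library). M9 was level with M11, M10 was the highest library and the third was the lowest. The log2 fold change was 0.48 ± 0.27 (SE; adjusted p = 0.452, edgeR), and 0.79 without M9, where it was called (adjusted p = 0.0274, against 0.0274 to 0.993 over the 11 alternatives). It was 0.11 without M10, and the third library alone differed by -2.10 (log2 CPM, no test).

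Markers of mesenchyme, which includes mural cells, were read beside these values. Of 12 listed markers 7 were tested, 6 with a negative fold change. By edgeR 2 were called lower (Col3a1 and Rgs5), as were 1.25% of all genes tested. Rgs5 was at 10.4 and 8.99 CPM alone, 1.20 and 0.523 in M9 and M10, and 0.0864 in the third library. The summed level of the 12 was 38.6 and 102 CPM in M11 and M12, 31.1 and 39.5 in M9 and M10, and 16.6 in the third library, so that M10 lay above M11. The most abundant were Reln and Col1a1. Reln was at 10.4 and 14.7 CPM alone, 29.0 and 36.2 in M9 and M10, and 8.24 in the third library (log2 fold change 1.36 ± 0.26, adjusted p = 0.0661, edgeR), opposite to the other tested markers. Col1a1 was at 7.52 and 37.1 CPM alone, 0.598 and 1.48 in M9 and M10, and 2.07 in the third library. Without Reln, left out after its values were seen, the sums were 28.2 and 87.5 CPM alone, 2.11 and 3.35 in M9 and M10, and 8.35 in the third library. No marker of this list was at 0 in all 4 libraries of the shared table. In bulk samples fewer cells of a type and less RNA per cell cannot be told apart, and the part of such cells in the values of Notch3, Dll1 or any other member was not tested.

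Rbpj encodes the DNA-binding protein through which all Notch receptors act. Its gene (ENSMUSG00000039191) lies on chromosome 5, plus strand, between 53466152 and 53657362. Rbpj levels alone were 101 CPM (M11) and 78.6 CPM (M12), and in co-culture 99.9 CPM (M9), 135 CPM (M10) and 77.9 CPM (the third library). The groups overlapped, since M9 fell between M11 and M12, and the log2 fold change was 0.37 ± 0.21 (SE; adjusted p = 0.451, edgeR).

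Hes1, a transcriptional repressor and the most direct of the classical Notch targets, is on the plus strand of chromosome 16 (30064384 to 30067796, ENSMUSG00000022528). Hes1 stood at 67.7 CPM (M11) and 92.8 CPM (M12) alone, and at 65.8 CPM (M9), 67.8 CPM (M10) and 98.1 CPM (the third library) in co-culture. On this scale M11 and M10 were nearly equal, M12 was well above them, and the third library was highest. The log2 fold change of Hes1 was -0.28 ± 0.20 (SE; adjusted p = 0.546, edgeR), and the third library differed by 0.31 (log2 CPM, no test).

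Nrarp encodes a small ankyrin-repeat protein that is induced by Notch and limits its signal. It lies on the plus strand of chromosome 2 (25180758 to 25183339, ENSMUSG00000078202). Nrarp levels alone were 26.2 CPM (M11) and 27.7 CPM (M12), against 19.2 CPM (M9), 27.9 CPM (M10) and 14.4 CPM (the third library). M10 was level with the organoids alone while M9 and the third library were lower. The log2 fold change was -0.21 ± 0.24 (SE; adjusted p = 0.732, edgeR) and 0.04 without M9.

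Hey1, a repressor related to Hes1 and prominent in endothelium and heart, was barely detected. It is on the minus strand of chromosome 3 (8663359 to 8667256, ENSMUSG00000040289). Hey1 had 19 and 10 counts in M11 and M12, 11 and 3 in M9 and M10, and 14 in the third library, which was sequenced deeper, or 0.741, 0.363, 0.346, 0.0922 and 0.242 CPM in that order. M12 and M9 were nearly equal. The difference of -1.32 ± 0.83 (log2, SE) did not pass (adjusted p = 0.497, edgeR).

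To compare levels between genes, CPM were divided by the kilobases of annotated exons of each gene in GENCODE. Per kilobase, Jag1 and Hes1 were the most abundant members and overlapped. Jag1 was at 37.4 and 38.4 CPM per kilobase alone, 33.5 and 32.1 in M9 and M10, and 56.2 in the third library, and Hes1 at 33.3 and 45.5 alone, 32.3 and 33.3 in M9 and M10, and 48.2 in the third library. Notch2 came next in the organoids alone (13.7 and 15.5 CPM per kilobase), then Nrarp (10.1 and 10.7). Rbpj (7.94 and 6.16) and Jag2 (6.19 and 5.17) followed and overlapped. Below them came Dll1 (3.84 and 3.77), Notch3 (2.89 and 2.50), Notch1 (1.25 and 1.44) and Hey1 (0.227 and 0.111), with no overlap between neighbours. In M10 Jag2 stood above Notch2, at 18.5 against 13.4 CPM per kilobase, and in M9 the pair was nearly level (both at 12.6).

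Among the receptors, Notch2 held 76.5% and 79.1% of the summed counts per kilobase in M11 and M12, 75.1% and 69.9% in M9 and M10, and 93.3% in the third library. Notch3 held 16.1% and 12.8% alone, 17.3% and 24.4% in M9 and M10, and 3.55% in the third library. The receptor make-up of M9 was thus close to that of M11, and the third library stood apart from the other 4. The third library was counted on RefSeq annotation and divided by GENCODE exon lengths, a reservation that also holds for its ligand shares.

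Among the ligands, Jag1 held 78.6% and 80.9% in M11 and M12, 71.0% and 61.8% in M9 and M10, and 89.5% in the third library. Jag2 held 13.0% and 10.9% alone, 26.8% and 35.7% in M9 and M10, and 7.94% in the third library. Dll1 held 8.07% and 7.95% alone and 1.97%, 2.26% and 2.39% in the 3 co-culture libraries, lower in each of them. Jag1 remained the leading ligand in all 5 libraries by this measure. The exon lengths are those of all annotated transcripts together, so levels of genes whose transcripts differ in length are approximate.

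**Figure D3:**
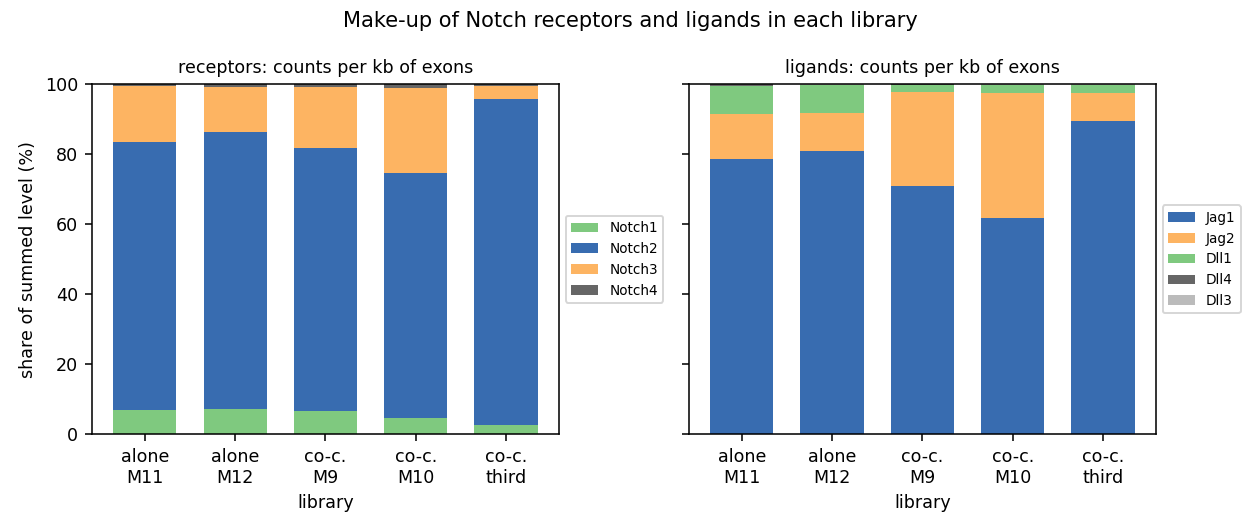
Share of each gene in the summed counts per kilobase of exons of the 4 Notch receptors (left) and 5 canonical ligands (right), in percent, with 1 bar per library. Jag2 takes a larger share in M9 and M10 (26.8% and 35.7%) than in the other 3 libraries. Notch2 takes 93.3% of the receptors in the third library, which was counted on another annotation.

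Notch4 and Dll4, 1 receptor and 1 ligand among those of endothelial Notch signalling, were near the limit of detection. Notch4 had 15 and 33 counts in M11 and M12, 36 and 45 in M9 and M10 and 39 in the third library (log2 fold change 0.48 ± 0.55, SE; adjusted p = 0.726, edgeR). Dll4 had 16, 11, 12, 15 and 9 counts in the same order (log2 fold change -0.29, adjusted p = 0.856). Of 22 endothelial markers, 13 stayed under 0.5 CPM in all 5 libraries; Clec4g was at 0 throughout, and Pecam1 had 1, 2, 2, 2 and 10 counts. Their summed level was 171 and 155 CPM alone, 89.2 and 91.6 in M9 and M10, and 110 in the third library, most of it from Flt4 (137 CPM in M11 and 25.0 in M9) and Ptprb (9.86 and 46.1). Flt4 was called lower and Ptprb higher by edgeR (adjusted p = 0.0106 and 0.0137). Flt4, Ptprb, Sox17 and Egfl7 were then left out, after their values were seen. Egfl7 was at 7.09 and 7.69 CPM alone, 9.81 and 9.93 in M9 and M10, and 5.49 in the third library. The other 18 summed to 3.82 and 5.04 CPM alone, 6.57 and 6.06 in M9 and M10, and 3.89 in the third library. The direction of the sum in M9 and M10 thus depended on which markers were kept. Flt1 was the most abundant of these 18 in M9 and M10 (3.55 and 2.12 CPM). It was at 1.05 and 1.27 CPM alone and 0.933 in the third library. Sox17, left out, was at 13.2 and 4.64 CPM alone, 1.76 and 0.615 in M9 and M10 and 0 in the third. Flt1 and Sox17, named after their values were seen, were not called (adjusted p = 0.254 and 0.122, edgeR). Macrophage markers summed to 703 and 621 CPM alone, 333 and 304 in M9 and M10, and 437 in the third library, mostly through Cd14 (659 and 582, 295 and 241, and 350 CPM). Cd14 and Lyz2 were called lower by edgeR (adjusted p = 0.0349 and 0.0451), Lyz2 at 9.35 and 2.32, 0.126 and 0.0615, and 0 CPM. Csf1r was at 31.6 and 32.1, 32.8 and 56.3, and 85.7 CPM in the same order, and Adgre1 and Clec4f were at 0 in the shared table. Ptprc, a general leukocyte marker of this list named after its values were seen, was barely detected. It had 8 and 3 counts alone, 4 and 3 in M9 and M10, and 0 in the third library. The part of such cells in the members' values was not tested.

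The rest of the pathway was read from 7 further lists of 61 genes by role. Of 56 genes in the first 6 lists (other receptors and ligands, glycosyltransferases, proteases, endocytosis and turnover, nuclear cofactors, other HES and HEY genes), 45 were tested and 0 were called by edgeR's quasi-likelihood test, with 4 at an unadjusted p under 0.05, which 17.5% of all genes tested reached. DESeq2 and limma-voom called 0 as well, each with 5 at an unadjusted p under 0.05, where 2874 of 28537 genes reached it with DESeq2 and 2760 of 15899 with limma-voom. Their median log2 fold change was 0.09. Without a low-count filter edgeR called 2 of the 56 (Ep300 higher and Dtx1 lower), where 1404 of 28537 genes were called. Ep300 and Dtx1 are named after their values were seen. Fits with 1 library left out are given below for the 61 genes together.

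All 10 tested proteases that process Notch were uncalled, 7 with a positive fold change. Furin, which cuts the receptor during its maturation, was the most abundant (log2 fold change 0.14 ± 0.15, adjusted p = 0.710, edgeR). Adam10, which makes the ligand-dependent cut, stood at 165 and 138 CPM alone, 202 and 235 in M9 and M10 and 196 in the third library. The co-culture libraries were above both organoids alone for Adam10, without passing the test (0.52 ± 0.17, adjusted p = 0.199, edgeR).

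None of the 5 glycosyltransferases, which add sugars to the receptors' EGF repeats, was called. Poglut1 and Pofut1 were at -0.20 ± 0.16 and 0.14 ± 0.16 (log2, SE; adjusted p = 0.601 and 0.734, edgeR). Of 13 genes of ligand endocytosis and receptor turnover none was called; the ubiquitin ligases Neurl1b and Mib1, which help ligands to be taken up, were at 0.62 ± 0.26 (adjusted p = 0.293) and -0.03 ± 0.24 (adjusted p = 0.973). Dtx1, a Deltex gene that Notch is known to induce, was at 20.8 and 35.2 CPM alone, 14.3 and 15.0 in M9 and M10 and 20.4 in the third library (log2 fold change -0.95 ± 0.30, adjusted p = 0.188, edgeR).

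Among 13 tested nuclear cofactors, 7 had a positive fold change and none was called. The corepressor Ctbp1 was at -0.24 ± 0.15 (log2, SE; adjusted p = 0.492, edgeR). Ep300, a histone acetyltransferase recruited with Mastermind, was at 166 and 144 CPM alone, 208 and 268 in M9 and M10 and 237 in the third library, higher in each co-culture library but not called (0.61 ± 0.18, adjusted p = 0.171, edgeR). Of 7 other HES and HEY genes only Hes6, which opposes Hes1, had enough counts to be tested, at 0.50 ± 0.18 (adjusted p = 0.241).

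Of 5 biliary genes that depend on Notch in liver development, 2 were called higher in M9 and M10, the keratins Krt7 and Krt19. The other 3 were not called by edgeR's quasi-likelihood test, Sox9 and Spp1 among them. Of all genes tested, 0.994% were called higher. Both keratin calls were lost without M11, without M12 and with all 5 libraries. Krt7 stood at 1409 and 1523 CPM alone, 3070 and 3311 in M9 and M10 and 843 in the third library (log2 fold change 1.11 ± 0.15, adjusted p = 0.0303, edgeR). Krt19 stood at 1748 and 2267 CPM alone, 4522 and 4428 in M9 and M10 and 1316 in the third library (1.15 ± 0.18, adjusted p = 0.0436, edgeR). As for Jag2, M9 and M10 were above the organoids alone and the third library was below them. The same held for the keratins Krt8 and Krt18, of the epithelial marker list and named after their values were seen. Neither was called, at log2 fold changes of 0.98 and 0.84 (adjusted p = 0.131 and 0.146, edgeR). Spp1, named after its values were seen, which encodes osteopontin, went the other way, at 2124 and 2882 CPM alone, 1168 and 683 in M9 and M10, and 2085 in the third library (-1.44 ± 0.31, adjusted p = 0.0825, edgeR). It was called lower by DESeq2, and by edgeR without a low-count filter, without M9 and without M10.

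**Figure D4:**
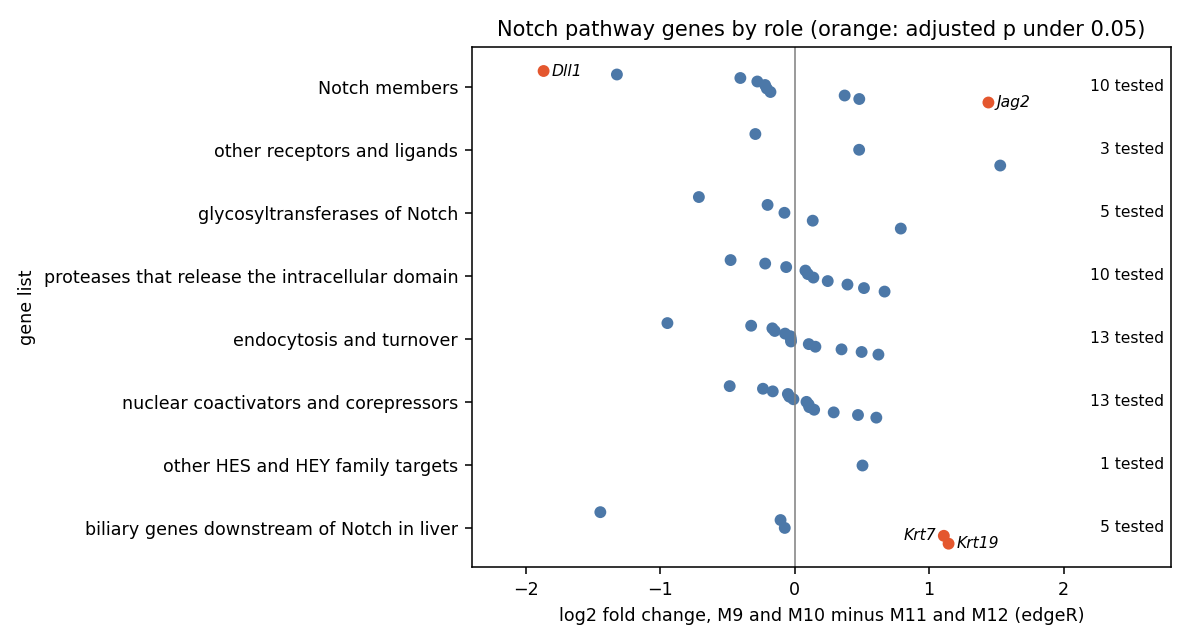
Log2 fold change of M9 and M10 against M11 and M12 for each tested gene of the 10 members and of the 7 other pathway lists, by list. Each point is 1 gene, and orange points have an adjusted p under 0.05. Dll1 and Jag2 lie at opposite ends of the members, and Krt7 and Krt19 are the called genes of the other lists.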

How the data were processed

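RNA libraries were stranded and depleted of ribosomal RNA, per the labels' protocols. Tools named in the submitters' processing notes, without roles, are StringTie 2.1.3b, Bowtie2 2.3.4.1, HISAT2 2.1.0, FastQC 0.11.7 and Trimmomatic 0.38, with builds mm10 and GRCh37; counting tool and strand setting: not given in the sources used here. The authors deposited estimated counts per Ensembl gene for 4 libraries, per the file headers, and whole-number counts by RefSeq transcript accession for the third co-culture library. Estimated counts of Notch1, Notch2, Dll1 and Rbpj were not whole in all 4 libraries. The 73925 rows of the shared table repeat genes by transcript biotype, and 1 row was kept per gene. Its columns name the group but no sample of it, so 1 measure, the counts, was used; 10 other columns of per-sample values (TPM and FPKM) were not used here, and levels per length use exon lengths instead.

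Estimated counts were rounded and tested in R 4.3.3 by edgeR 4.0.16 (TMM scaling after filterByExpr, robust quasi-likelihood, Benjamini-Hochberg at 0.05 over all genes tested). Each SE is the absolute log2 fold change over the root of the F statistic. The third library was joined by symbol (30831 genes, 91.8% of its counts); log2 CPM differences use a prior count of 2. On simulated data the edgeR step recovered 11 of 50 changes of 2-fold, 45 of 50 of 4-fold and all 50 of 8-fold. Of its 166 calls 10 were false. Most 2-fold changes were thus missed, so a gene not called may still differ. DESeq2 1.42.0 and limma 3.58.1 were alternatives. The members and lists were chosen with earlier results of these data known. Named besides the members were Notch4, Dll4, called genes of each list or its 2 most abundant, and genes said to be named after their values were seen; Dner, Dlk1, Hes5, Pecam1, Clec4g, Adgre1, Clec4f, Lyz2, Col3a1 and Rgs5 were also named after their values were seen. Some genes of the lists are not reported here by name. Gene positions come from GENCODE M21 on GRCm38, by Ensembl ID.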

Additional observations from a re-analysis of the deposited data

How the results depend on the processing

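The number of members called was 2 under RLE scaling, total count scaling, both other low-count filters and DESeq2, 1 with limma-voom (Dll1), between 0 and 3 when 1 library was left out, and 0 with all 5 libraries (1 at an unadjusted p under 0.05). It was 0 when M11 or M12 was left out (2 members each at an unadjusted p under 0.05), 3 when M9 was and 2 when M10 was. Over all genes the 356 calls became 1404 without a low-count filter, 1329 with DESeq2, 0 to 2619 when 1 library was left out (M11, 50; M12, 0, with 1438 at an unadjusted p under 0.05; M9, 2619; M10, 1114) and 2 with all 5 libraries. The 2 other pathway genes called became 5 without a low-count filter, 0 to 7 when 1 library was left out (0 without M11 and without M12, 7 without M9) and 0 with all 5 libraries. Where 1 library is left out, the lone library of its group is taken to vary like the other group. The sign turned for Nrarp without M9 (log2 fold changes with 1 library left out ran from -0.49 to 0.042) and for Jag1 with all 5 libraries (0.10). Of 110 recomputed fold changes of members, 100 kept their sign and their side of the threshold. Most of these belong to the 8 members not called in the main fit. Of the 2 called members, Dll1 kept its call in 8 of 11 alternatives and Jag2 in 7 of 11. The cause of the changes was not tested. No paired analysis was possible because the columns carry library numbers and not the replicate numbers of the titles. Hey1 had the fewest counts of the members, 3 to 19. The per-length shares have no alternative measure, which was not run because only the counts were used.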

Other observations

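Several atypical ligands and further targets had too few counts for the test. Dner, an atypical ligand of neural tissue, had 5 and 16 counts in M11 and M12, 2 and 1 in M9 and M10 and 0 in the third library. Dlk1, a fetal hepatoblast protein related to the Notch ligands, had 3 and 2 counts alone, 15 and 8 in M9 and M10 and 0 in the third library. Dlk2, its relative, passed the filter and was not called (log2 fold change 1.53 ± 0.65, adjusted p = 0.310, edgeR), with 11, 6, 21, 40 and 2 counts in M11, M12, M9, M10 and the third library. Hes5 had 1 count in the 4 libraries of the shared table together and 0 in the third library. Lfng, named after its values were seen, is a Fringe glycosyltransferase that shifts receptors between ligand families and was at 5.30, 11.5, 19.4, 9.93 and 14.4 CPM in the same order, M12 lying between M10 and M9 (adjusted p = 0.495, edgeR).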
